A study of Arabidopsis thaliana with 12 samples.

Results

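Wild-type seedlings of Arabidopsis thaliana kept on cadmium were compared with wild-type seedlings kept on arsenite, by the expression of 13356 genes on single-colour Affymetrix arrays. The comparison uses 6 of the 12 arrays of the study, chosen by their labels: 3 arrays of seedlings on 100 µM cadmium, and 3 arrays of seedlings on 20 µM arsenite, As(III). Both groups were of the accession Col-0, were 14 days old, grew on minimal medium and were harvested as whole seedlings, and the design text calls the 3 samples of a group biological replicates. The other 6 arrays hold the same treatments in slim1-1, a mutant of the transcription factor SLIM1, the regulator of sulfur limitation in Arabidopsis, and are used only where the genotypes are set side by side. The labels' protocol, the same for every sample, describes 12 days without treatment and 48 hours on arsenite but does not mention cadmium, so how long those seedlings were exposed is unknown, and the time of day of harvest is not given. Untreated seedlings were not analysed here, so a gene given as higher under cadmium may equally be called lower under arsenite. Metal, concentration and array set cannot be told apart.

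Cadmium enters plant cells mainly through carriers of iron, zinc and calcium, whereas arsenite passes through aquaporin-like channels. Both bind thiols and are complexed by glutathione and by the phytochelatins made from it, which draws on the assimilation of sulfate. Exposed plants are known to change genes of sulfur and iron supply, of protein folding, of oxidative stress and of hormone pathways.

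The deposited log2 values of the cadmium and arsenite arrays lay on different scales. Their medians were 5.6, 5.58 and 5.58 on the cadmium arrays, against 6.87, 6.85 and 6.9 on the arsenite arrays. The median gene accordingly differed by -1.14, cadmium minus arsenite, and this step belongs to a whole array set. The 6 arrays were therefore brought to 1 common distribution of log2 values (quantile normalization), after which the median gene differed by 0.04. All levels and differences below are on this normalised log2 scale, where 1 unit is a 2-fold difference, and a difference is cadmium minus arsenite. They are thus relative to the median gene, and genes higher under cadmium by less than about the size of the step were lower in the deposited values, which are given below as values with the step kept. Levels under 3.95, the lower quartile of the probe sets, were not taken as above background. Replicates correlated across probe sets with r of at least 0.996, and arrays of different metals with r between 0.935 and 0.940. The median standard error of a difference was 0.0812, so the number of arrays limits the precision. Among control probe sets, the 3′ minus 5′ signal of ubiquitin, which reflects RNA integrity, was 1.23, 1.24 and 1.23 under cadmium, against 0.92, 0.90 and 0.96 under arsenite, with no overlap (two-sided exact permutation p = 0.1, the smallest that 3 against 3 arrays allow). The same measure of GAPDH differed by 0.10 (exact p = 0.3) and that of actin by 0.08 (exact p = 0.6), and 25S rRNA by 0.17 (exact p = 0.9). On arsenite replicate 3, 25S rRNA was 10.12, below the 11.07 and 11.30 of arsenite replicates 1 and 2. In the deposited values the GAPDH measure was 1.2, 1.19 and 1.03 under cadmium, against 0.97, 0.99 and 0.93 under arsenite, also with no overlap (exact p = 0.1). There the ubiquitin measure was 1.37, 1.43 and 1.39 under cadmium, against 0.78, 0.79 and 0.83 under arsenite (exact p = 0.1). The part of RNA integrity in the results was not tested.

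The tissue label was checked against marker genes. The 6 measured leaf photosynthesis genes of 36 listed, among them the subunits of the light-harvesting complex LHCB4.1 and LHCB4.2 and the Rubisco activase RCA, had levels above 12 on every array. PYK10, a beta-glucosidase abundant in roots, averaged 12.62 under cadmium and 12.55 under arsenite, so root and shoot transcripts were both present. Of the flower, seed and pollen markers none was measured.

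Differences between the metals were frequent, and the very large ones mostly lay on the lower side under cadmium. Of the 13356 genes, 7542 (56.5%) passed an adjusted p of 0.05 in limma's moderated test with Benjamini-Hochberg adjustment, 4334 (32.4%) higher and 3208 (24%) lower under cadmium. The share of calls that were higher was 57.5%, against 1.69% in the deposited values with the step kept, 65.8% after a shift to a common median and 50.9% after cyclic loess, so it depends on the scaling. A difference of at least 2-fold was called for 1433 genes (10.7%), 631 higher (4.72%) and 802 lower (6%). At 8-fold or more the counts were 22 higher (0.165%) and 101 lower (0.756%), and they were 22 and 108 after cyclic loess and 22 and 97 after a shift to a common median. The 3 arrays of one metal did not overlap the 3 of the other for 8549 genes (64%). Since calls are this frequent, a call says little of a single gene, and the sizes below carry more.

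**Figure D1:**
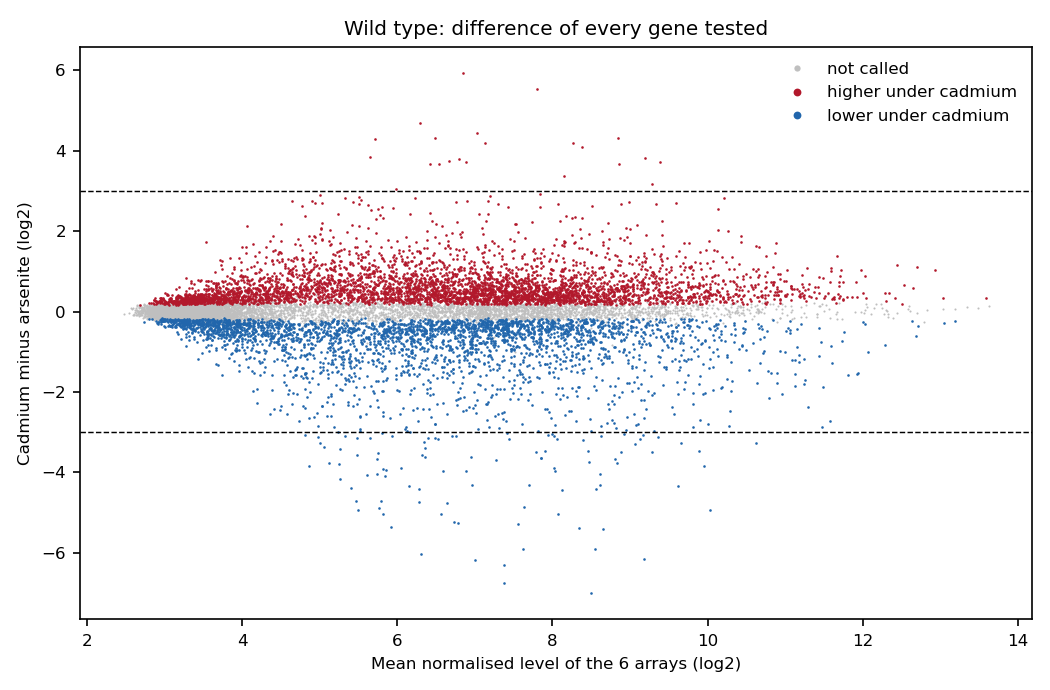
Cadmium minus arsenite difference (log2) of each of the 13356 genes against its mean normalised level over the 6 wild-type arrays (log2). Red and blue points were called higher and lower under cadmium, grey points were not called, and dashed lines mark 8-fold: 101 called genes lie beyond the lower line and 22 beyond the upper one.

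Genes of sulfur supply did not move one way. BGLU28, a putative thioglucosidase known to rise when sulfur is short, had levels of 9.47, 9.99 and 9.99 under cadmium, against 3.85, 3.90 and 3.90 under arsenite. It was the gene with the largest positive difference of all tested, 5.93 ± 0.13 (adjusted p = 4.95e-09), with high levels on every cadmium array and levels not above background on every arsenite array, so that its fold is not exact. The second measured marker of sulfur starvation of 9 listed, SDI2, a paralog of SULFUR DEFICIENCY INDUCED 1, differed by 0.60 ± 0.14 (adjusted p = 0.00498) and was lower by 0.61 with the step kept. Of the enzymes that assimilate sulfate, 3 of 23 were measured, with a median of -0.74. APS4, an ATP sulfurylase, which activates sulfate, had 8.84, 8.86 and 8.53 under cadmium, against 10.09, 10.08 and 10.20 under arsenite. The groups did not overlap, and APS4 was lower under cadmium by 2.60-fold (-1.38 ± 0.097, adjusted p = 4.35e-06). SIR, the sulfite reductase that makes sulfide, was also lower, at -0.74 ± 0.077 (adjusted p = 4.68e-05). The ATP sulfurylase APS3 pointed the other way, with 9.19, 9.27 and 8.56 under cadmium, against 8.70, 8.50 and 8.48 under arsenite. Its groups overlapped through cadmium replicate 3, and the difference of 0.45 ± 0.17 (adjusted p = 0.0502) did not pass. It passed without cadmium replicate 3 (adjusted p = 0.000512), after a shift to a common median (0.0191), in the fit of 12 arrays (0.0253), with array weights (0.0289) and among genes above the median level (0.0493), and it was -0.77 with the step kept.

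The 4 measured members of the lists on glutathione and on metal transport were higher under cadmium, where 32.4% of all genes tested were. Both measured members of 11 for glutathione and phytochelatins are glutathione reductases, which restore reduced glutathione. GR1, the cytosolic form, had 10.37, 10.36 and 10.45 under cadmium, against 8.67, 8.92 and 9.04 under arsenite, apart on all arrays and 2.85-fold higher (1.51 ± 0.097, adjusted p = 2.46e-06). The plastid and mitochondrial form, listed as GR, was higher by 0.46 ± 0.074 (adjusted p = 6.75e-04), and lower by 0.75 with the step kept. Of metal transport and chelation, 2 of 32 members were measured. MT1C, a metallothionein, which binds metals with its cysteines, was abundant, with 12.54, 12.55 and 12.39 under cadmium and 11.33, 11.60 and 11.48 under arsenite, 2.03-fold higher under cadmium (1.02 ± 0.088, adjusted p = 1.43e-05), a call lost with the step kept (adjusted p = 0.742). ZIP9, a carrier of the zinc and iron family, lay near the lower quartile, at 4.43, 4.40 and 4.57 under cadmium, against 4.30, 4.17 and 4.11 under arsenite. Its small difference was 0.27 ± 0.079 (adjusted p = 0.0172), and it was -1.09 with the step kept. The call was lost without cadmium replicate 3 and without arsenite replicate 2 or 3 (adjusted p between 0.0538 and 0.062). It was also lost after a shift to a common median (adjusted p = 0.0632) and after cyclic loess (adjusted p = 0.108). Synthesis of glutathione and phytochelatins, sulfate carriers and the vacuolar carriers of their metal complexes are not analysed here.

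The iron deficiency response held 2 of the largest differences. IMA1, a small peptide of the IRON MAN family that switches on iron uptake, had 10.53, 10.86 and 10.34 under cadmium, against 5.01, 4.57 and 5.51 under arsenite. The groups were far apart, at 46.7-fold higher under cadmium (5.55 ± 0.22, adjusted p = 1.34e-07). BHLH101, a transcription factor that acts with FIT to turn on iron uptake genes, had 9.03, 9.21 and 9.44 under cadmium, against 4.47, 4.65 and 5.97 under arsenite. Arsenite replicate 3 stood above the other two but well below every cadmium array, and the difference was 4.19 ± 0.34 (adjusted p = 9.26e-06), or 18.3-fold. PYE (POPEYE), a regulator of iron distribution, was higher by 0.57 ± 0.076 (adjusted p = 2.08e-04) and was lower by 0.65 with the step kept. The 2 measured enzymes that make iron-mobilising coumarins did not pass, with 0.22 (adjusted p = 0.134) for F6'H1 and 0.20 (adjusted p = 0.10) for S8H. In all, 3 of the 5 measured members of 17 were higher and none lower, where 32.4% and 24% of all genes tested were. The median was 0.57, and 3 members were lower with the step kept. CCS, the chaperone that loads copper into superoxide dismutase and the only measured gene of copper homeostasis, differed by -0.47 (adjusted p = 0.0759).

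Heat shock genes were moderately higher under cadmium. Of 29 listed, 8 were measured and 7 of these were higher, where 32.4% of all genes tested were, with a median of 1.2, whereas with the step kept 1 was higher and 3 were lower. HSP23.5, a small heat shock protein of mitochondria, had 7.28, 7.34 and 7.56 under cadmium, against 5.35, 5.11 and 5.68 under arsenite, 4.03-fold higher with no overlap (2.01 ± 0.14, adjusted p = 3.82e-06). HSP17.6B had 5.73, 6.06 and 5.61 under cadmium, against 4.47, 4.56 and 4.54 under arsenite (1.28 ± 0.11, adjusted p = 1.41e-05). The peroxisomal HSP15.7 (1.19 ± 0.074, adjusted p = 2.09e-06) and HSP26.5 (1.25 ± 0.091, adjusted p = 5.26e-06) differed by similar amounts, HSP26.5 from arsenite levels not above background and with its call lost with the step kept. The immunophilin ROF2, which modulates heat shock factors, was higher by 1.22 ± 0.14 (adjusted p = 7.02e-05) and the HSP70 nucleotide exchange factor Fes1A by 1.16 ± 0.13 (adjusted p = 5.73e-05). The remaining member called higher, ATHSP22.0, averaged 3.92 under cadmium and 3.62 under arsenite, not above background in either group (0.30 ± 0.076, adjusted p = 0.00891). HSP17.6C, near background in both groups, did not pass (0.18, adjusted p = 0.110). Fes1B, a relative of Fes1A, went the opposite way and was among the largest negative differences. Its levels were 5.29, 5.21 and 4.92 under cadmium, against 8.82, 8.74 and 8.71 under arsenite, 12.3-fold lower under cadmium (-3.62 ± 0.099, adjusted p = 1.68e-08), with no overlap.

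Of 17 listed genes of the unfolded protein response of the endoplasmic reticulum, 4 were measured. Of these, 2 were lower and 1 higher under cadmium, where 24% and 32.4% of all genes tested were. All 4 were lower with the step kept. The lower 2 were the transcription factors that start the response, BZIP60 and BZIP28. BZIP60 had 9.21, 9.21 and 9.05 under cadmium, against 10.58, 10.26 and 10.21 under arsenite (-1.19 ± 0.10, adjusted p = 1.66e-05). BZIP28 differed by -1.04 ± 0.069 (adjusted p = 2.89e-06). The co-chaperone ERDJ3B, listed as ATERDJ3B, was slightly higher (0.32 ± 0.087, adjusted p = 0.0116), which was lost under cyclic loess (adjusted p = 0.0656) and was -0.89 with the step kept. The median of the list was -0.53.

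Genes of anthocyanin synthesis were higher under cadmium without exception among the 5 measured of 15, where 32.4% of all genes tested were, with a median of 1.26, although with the step kept 2 were higher and 2 lower. DFR, the dihydroflavonol reductase that commits flavonoids to anthocyanin, had 7.64, 8.06 and 7.89 under cadmium, against 3.58, 3.63 and 3.49 under arsenite. No arsenite level was above background, and every cadmium level was (4.30 ± 0.11, adjusted p = 9.40e-09). Of the enzymes that decorate the pigment, the 5-O-glucosyltransferase UGT75C1 had 5.81, 6.08 and 6.02 under cadmium, against 4.03, 4.04 and 4.07 under arsenite, 3.80-fold higher (1.92 ± 0.082, adjusted p = 2.02e-07). The xylosyltransferase UF3GT differed by 1.26 ± 0.10 (adjusted p = 1.07e-05), the flavonoid 3-O-glucosyltransferase UGT78D2 by 0.75 ± 0.10 (adjusted p = 2.14e-04), and the malonyltransferase AT5MAT by 0.67 ± 0.12 (adjusted p = 0.00154). UGT78D1, which adds rhamnose to flavonols and is not on the list, was higher by 1.91 ± 0.098 (adjusted p = 6.37e-07).

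All 3 measured auxin genes, of 6 listed, were strongly higher under cadmium, with a median of 4.09. Of all genes tested, 32.4% were higher. The list was chosen with earlier results of these data known, and these 3 genes are also among the largest named positive differences. Their count and median therefore describe these genes alone and do not test auxin genes as a group. GH3.3, which conjugates auxin to amino acids, had 10.46, 10.37 and 10.26 under cadmium, against 6.22, 6.42 and 5.88 under arsenite (18.3-fold, 4.19 ± 0.13, adjusted p = 3.09e-08). IAA29, a repressor of auxin signalling that is also raised in shade, had 10.43, 10.39 and 10.45 under cadmium, against 6.12, 6.25 and 6.63 under arsenite (17.0-fold, 4.09 ± 0.12, adjusted p = 2.27e-08). HAT2, an auxin-induced homeodomain factor, was 9.09-fold higher (3.18 ± 0.095, adjusted p = 2.70e-08). The arrays of the metals were far apart for each of these genes.

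Other genes among the 12 largest named positive differences had varied roles. HYH, the close homolog of the light-signalling factor HY5, had 7.44, 7.39 and 7.68 under cadmium, against 4.30, 4.41 and 4.68 under arsenite, 8.23-fold higher (3.04 ± 0.11, adjusted p = 9.23e-08). AFR, an F-box protein of phytochrome A signalling, was 6.76-fold higher, with 8.18, 8.30 and 8.36 under cadmium and 5.43, 5.48 and 5.67 under arsenite (2.76 ± 0.086, adjusted p = 3.16e-08). AT1G68570 (NPF3.1), a carrier of the nitrate and peptide family, was 6.67-fold higher (2.74 ± 0.15, adjusted p = 9.76e-07). PRX52, a class III peroxidase linked to lignin, had 6.32, 6.32 and 6.25 under cadmium, against arsenite levels of 3.58, 3.57 and 3.60, which were not above background (2.71 ± 0.062, adjusted p = 6.04e-09).

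**Figure D2:**
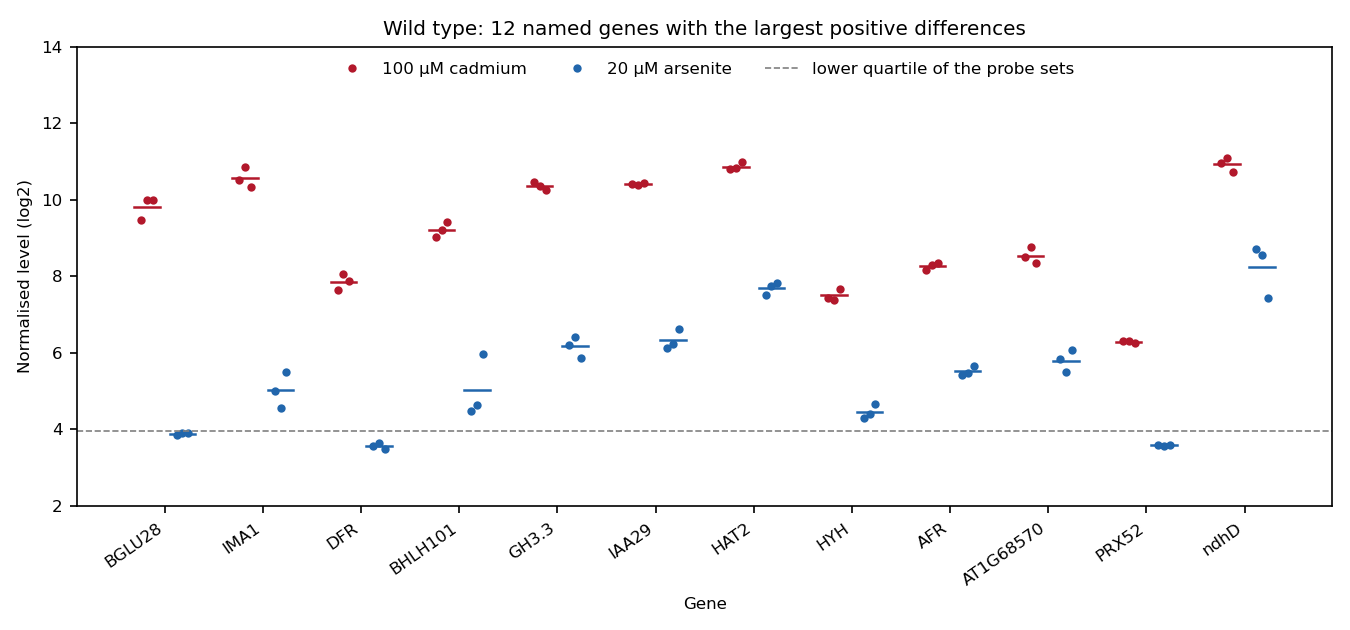
Normalised levels (log2) of the 12 named genes with the largest positive difference, with a point per array for 3 cadmium arrays (red, left) and 3 arsenite arrays (blue, right), a bar at each mean, and a dashed line at 3.95, the lower quartile of the probe sets. Groups that do not overlap were a condition for choosing these genes. The arsenite points of BGLU28, DFR and PRX52 lie under the dashed line.

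Calcium sensors and stress-related transcription factors were among the largest named differences on the lower side. CML38, a calmodulin-like protein known from wounding and low oxygen, had 5.86, 6.0 and 4.94 under cadmium, against 11.50, 11.56 and 11.46 under arsenite. Cadmium replicate 3 was the lowest of the 6 arrays, and CML38 was 59.8-fold lower under cadmium (-5.90 ± 0.23, adjusted p = 1.33e-07). CML37, its close relative, had 4.06, 4.09 and 3.98 under cadmium, against 9.16, 9.17 and 8.92 under arsenite, 32.9-fold lower (-5.04 ± 0.085, adjusted p = 1.27e-09). Its cadmium levels lay near the lower quartile of the probe sets, so that its fold is not exact. Also lower were AT1G76640 (CML39), at -2.72 ± 0.15 (adjusted p = 1.16e-06), and CML23, at -2.48 ± 0.076 (adjusted p = 3.06e-08). Of 9 measured calmodulin-like and EF-hand genes 7 were lower and 2 higher under cadmium, where 24% and 32.4% of all genes tested were, with a median of -0.63. With the step kept 1 was higher. CML41 was the exception in size, 2.54 ± 0.30 (adjusted p = 9.64e-05), with means of 7.02 under cadmium and 4.48 under arsenite.

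ORA47, an AP2/ERF factor that turns on the synthesis of jasmonate, had 6.04, 5.52 and 5.41 under cadmium, against 11.04, 10.95 and 11.13 under arsenite, 41.9-fold lower with no overlap (-5.39 ± 0.15, adjusted p = 1.73e-08). STZ (ZAT10), a zinc finger repressor raised by salt, cold and oxidants, had 7.59, 7.60 and 7.49 under cadmium, against 12.58, 12.43 and 12.49 under arsenite, where it ranked among abundant transcripts (30.8-fold, -4.94 ± 0.071, adjusted p = 6.97e-10). Defence regulators of the WRKY family joined them: WRKY22 was lower at -2.48 ± 0.092 (adjusted p = 9.12e-08) and WRKY53, which also acts in senescence, at -2.67 ± 0.28 (adjusted p = 4.67e-05). Of 7 measured WRKY genes 4 were lower and 2 higher, where 24% and 32.4% of all genes tested were. Only 1 was higher without arsenite replicate 3, and 0 were higher and 7 lower with the step kept. GRX480, a glutaredoxin of the crosstalk between salicylate and jasmonate, was lower at -1.86 ± 0.15 (adjusted p = 1.14e-05). Of 22 listed genes of the jasmonate response 4 were measured, ORA47 among them. Of these, 1 was higher and 1 lower, where 32.4% and 24% of all genes tested were. The defensins PDF1.2 (-0.43, adjusted p = 0.736) and PDF1.2b (-0.63, adjusted p = 0.581) did not pass. The thionin THI2.1 was higher by 0.89 ± 0.092 (adjusted p = 4.66e-05) and was lower by 0.35 with the step kept. Without arsenite replicate 2 the count of higher members was 2.

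Ubiquitin ligases of the plant U-box family were lower under cadmium in 5 of 9 measured genes and higher in 1, where 24% and 32.4% of all genes tested were, with a median of -0.59. With the step kept 0 were higher and 9 lower. PUB23, which with PUB22 and PUB24 damps immune signalling, had 7.74, 7.55 and 7.32 under cadmium, against 10.88, 10.66 and 10.60 under arsenite, 9.05-fold lower (-3.18 ± 0.12, adjusted p = 9.22e-08). PUB22 was lower at -2.30 ± 0.11 (adjusted p = 4.11e-07), PUB24 at -2.11 ± 0.15 (adjusted p = 5.01e-06) and PUB19, a regulator of the abscisic acid and drought response, at -2.54 ± 0.12 (adjusted p = 3.71e-07). The groups did not overlap for any of these genes.

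Cold and drought genes were lower under cadmium in 3 of the 4 measured of 22, where 24% of all genes tested were, with a median of -2.13 and none higher. COR15B, which protects chloroplast membranes in the cold, had 6.40, 6.68 and 5.98 under cadmium, against 10.24, 10.84 and 11.20 under arsenite, 21.2-fold lower (-4.41 ± 0.24, adjusted p = 9.65e-07). The dehydrins LTI30 and COR47 were lower at -2.38 ± 0.14 (adjusted p = 1.39e-06) and -1.88 ± 0.091 (adjusted p = 4.58e-07). COR15A, the tandem neighbour of COR15B, did not pass (-0.83, adjusted p = 0.164). COR27, a cold-regulated gene under the control of the clock, had 3.39, 3.16 and 3.16 under cadmium, not above background, against 8.70, 8.54 and 8.54 under arsenite (-5.35 ± 0.088, adjusted p = 1.27e-09). GI (GIGANTEA), the only measured clock gene of 23, had 6.26, 6.01 and 6.23 under cadmium, against 9.71, 9.56 and 9.64 under arsenite, 11.1-fold lower (-3.47 ± 0.086, adjusted p = 9.83e-09). The dehydrin AT1G54410 (HIRD11), which binds metals, was abundant, with 11.14, 11.23 and 11.09 under cadmium and 12.72, 12.69 and 12.71 under arsenite, 2.94-fold lower (-1.56 ± 0.067, adjusted p = 2.15e-07).

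AT5G52050 (DTX50), an exporter of abscisic acid of the MATE family, had 5.35, 5.21 and 5.05 under cadmium, against 10.25, 10.01 and 9.93 under arsenite, 29.0-fold lower (-4.86 ± 0.11, adjusted p = 4.46e-09). PDC2, a pyruvate decarboxylase, which opens ethanol fermentation, was 11.1-fold lower, with 6.70, 6.82 and 6.65 under cadmium and 10.08, 10.35 and 10.17 under arsenite (-3.48 ± 0.087, adjusted p = 1.07e-08). Neither gene had overlapping groups, which the rule for the largest named differences required.

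**Figure D3:**
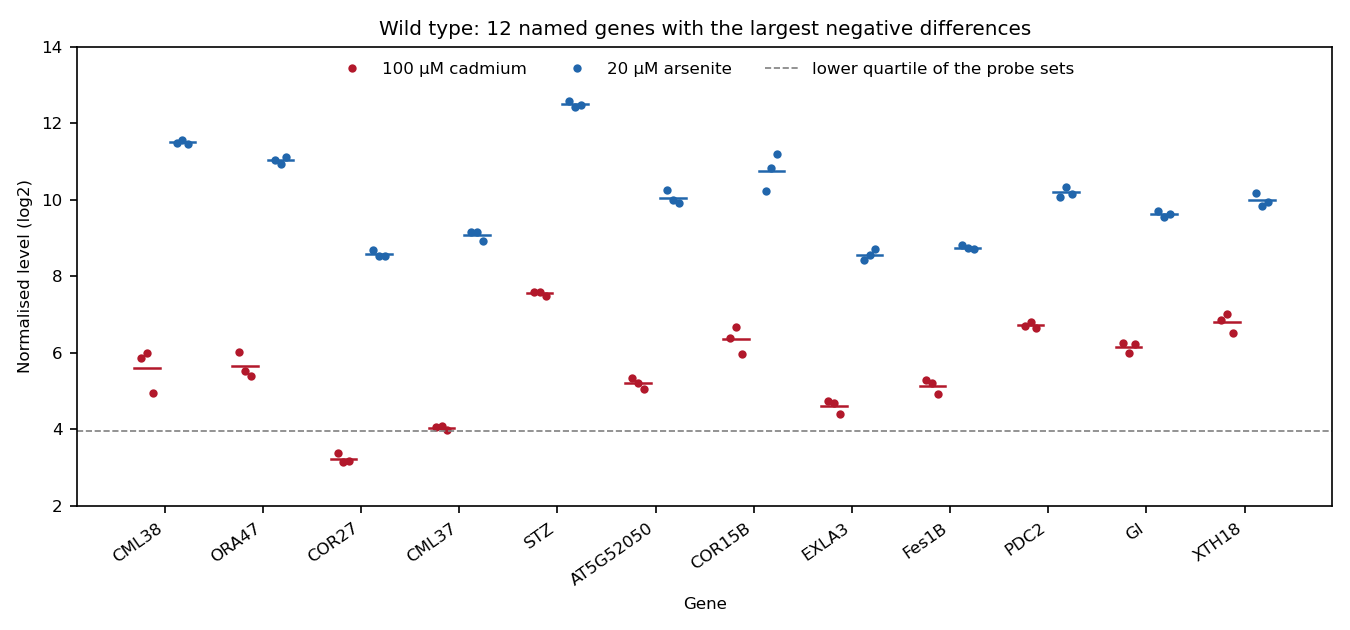
Normalised levels (log2) of the 12 named genes with the largest negative difference, with a point per array for 3 cadmium arrays (red, left) and 3 arsenite arrays (blue, right), a bar at each mean, and a dashed line at 3.95, the lower quartile of the probe sets. All arsenite points lie above 8 and all cadmium points below them, with COR27 under the dashed line.

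Conjugation of foreign compounds divided the glutathione transferases. Of the list's 7 measured members of 35, 4 were lower and 1 higher under cadmium, where 24% and 32.4% of all genes tested were, with a median of -0.69. With the step kept all 7 were lower. GSTU26 had 4.73, 4.69 and 4.49 under cadmium, against 7.26, 7.55 and 7.88 under arsenite, 7.61-fold lower (-2.93 ± 0.15, adjusted p = 5.25e-07), and GSTU28 was lower at -1.86 ± 0.15 (adjusted p = 9.97e-06). The glycosyltransferase UGT73B1 was lower at -1.35 ± 0.087 (adjusted p = 2.51e-06), and UGT73B5 at -0.69 ± 0.15 (adjusted p = 0.00325). GSTU22 was higher by 0.72 ± 0.13 (adjusted p = 0.00108), or lower by 0.49 with the step kept. Over all 12 measured glutathione transferases found by name, 7 were higher and 3 lower, with a median of 0.33, and with the step kept 0 were higher and 11 lower. GSTU16 led the higher ones, with 8.51, 8.73 and 8.52 under cadmium and 7.07, 7.24 and 7.31 under arsenite (1.38 ± 0.091, adjusted p = 2.80e-06), a call lost with the step kept. GSTU20, also known from glucosinolate synthesis, differed by 0.39 ± 0.12 (adjusted p = 0.0241), a call lost without cadmium replicate 2 or 3 and without arsenite replicate 1 or 3 (adjusted p between 0.051 and 0.0814). That call was also lost after cyclic loess (adjusted p = 0.133) and when ranks within each array were used (adjusted p = 0.0587). BCAT4, the first enzyme of methionine-derived glucosinolates, was lower at -0.73 ± 0.20 (adjusted p = 0.0118), and cadmium replicate 3, at 9.61, lay close to the arsenite arrays.

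Genes of mitochondrial stress and of antioxidant defence gave smaller differences. Of mitochondrial stress, 2 of 3 measured members of 10 were higher, where 32.4% of all genes tested were, with a median of 0.80. Only 1 was higher and 2 were lower with the step kept. The cysteine-rich protein 12CYS had 5.83, 5.94 and 5.61 under cadmium, against 4.14, 4.06 and 4.06 under arsenite (1.71 ± 0.092, adjusted p = 8.57e-07), and the alternative NADH dehydrogenase NDB2 was higher by 0.80 ± 0.10 (adjusted p = 1.78e-04) and was lower by 0.41 with the step kept. The sulfiredoxin SRX, which repairs oxidised peroxiredoxins, was higher by 0.73 ± 0.077 (adjusted p = 5.04e-05) and was lower by 0.49 with the step kept. Of the 2 chloroplast ascorbate peroxidases, the stromal SAPX was lower, with 7.29, 7.15 and 7.27 under cadmium and 8.31, 8.52 and 8.22 under arsenite (-1.11 ± 0.091, adjusted p = 1.02e-05). The thylakoid TAPX differed by 0.22 ± 0.066 (adjusted p = 0.0183), lost without cadmium replicate 2 and without arsenite replicate 3 (adjusted p 0.0585 and 0.0556). It was 0.06 after cyclic loess (adjusted p = 0.445) and -0.98 with the step kept.

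Cell wall genes differed in both directions. Of 19 measured expansins, which loosen walls, 5 were higher and 8 lower under cadmium, where 32.4% and 24% of all genes tested were, and of 10 xyloglucan endotransglucosylases, which cut and rejoin wall xyloglucan, 5 were higher and 5 lower. EXLA3, an expansin-like gene, had 4.75, 4.68 and 4.40 under cadmium, against 8.42, 8.56 and 8.71 under arsenite, 15.5-fold lower (-3.95 ± 0.11, adjusted p = 1.85e-08), and its neighbour EXLA1 was lower at -1.44 ± 0.089 (adjusted p = 1.91e-06). EXPA16 had the largest positive difference of the family (2.66 ± 0.37, adjusted p = 3.00e-04), with means of 6.96 under cadmium and 4.30 under arsenite, and EXPA8 was higher by 1.48 ± 0.10 (adjusted p = 3.32e-06). XTH18, XTH19 and XTH20 were lower together, XTH18 with 6.86, 7.01 and 6.52 under cadmium, against 10.19, 9.84 and 9.94 under arsenite (-3.19 ± 0.13, adjusted p = 1.92e-07), XTH19 at -2.19 ± 0.094 (adjusted p = 2.25e-07) and XTH20 at -1.64 ± 0.11 (adjusted p = 3.45e-06). XTH32 was higher by 1.34 ± 0.074 (adjusted p = 1.01e-06), a call lost with the step kept, and XTH33 by 1.35 ± 0.13 (adjusted p = 3.34e-05). Under the step kept, 2 expansins were higher and 16 lower, and 0 and 8 of the xyloglucan enzymes.

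The 2 measured root hair markers were lower under cadmium, where 24% of all genes tested were. EXPA7, an expansin of root hair cells, had 3.99, 4.73 and 4.28 under cadmium, against 5.88, 5.75 and 6.0 under arsenite (-1.54 ± 0.17, adjusted p = 5.44e-05), and EXPA18 was lower at -0.98 ± 0.15 (adjusted p = 4.15e-04). The cadmium levels of EXPA7 lay near the lower quartile of the probe sets. These 2 genes are the measured ones of 8 root hair genes. Their summed level on a linear scale was 39.5 to 59.4 under cadmium and 100.4 to 124.0 under arsenite. In whole seedlings fewer cells of a type and less RNA per cell cannot be told apart. The root marker PYK10 did not pass (0.07, adjusted p = 0.422). The 6 leaf photosynthesis genes summed to 51753 to 52437 under cadmium and 52375 to 54552 under arsenite, with a median difference of -0.10. PSAN, a photosystem I subunit, was lower at -0.60 ± 0.064 (adjusted p = 5.0e-05), LHCB4.1 lower at -0.29 ± 0.068 (adjusted p = 0.00582) and LHCB4.2 higher by 0.33 ± 0.065 (adjusted p = 0.00218). RCA held the same rank on each array of a group, so that its levels were 13.75 on each cadmium array and 13.42 on each arsenite array. These directions depend on the scaling, since LHCB4.1 was higher by 0.22 after a shift to a common median, and LHCB4.2 and RCA were lower by 0.45 and 0.34 with the step kept. The part of tissue makeup in the results was not tested. Of cell division, 2 of 15 were measured, and both were lower under cadmium, where 24% of all genes tested were. They were the replication helicase subunit PRL (-1.0 ± 0.081, adjusted p = 1.04e-05) and the mitotic kinase AUR1 (-0.55 ± 0.11, adjusted p = 0.00202).

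Genes encoded in the plastid genome were spread around the median gene. Of 69 measured, 19 were higher and 13 lower, shares below the 32.4% and 24% of all genes tested, with a median of 0.12. With the step kept 1 was higher and 59 lower. The count of higher genes was 12 without cadmium replicate 2, and that of lower genes 20 without arsenite replicate 3. ndhD, a subunit of the plastid NADH dehydrogenase-like complex, had 10.96, 11.11 and 10.74 under cadmium, against 8.71, 8.56 and 7.45 under arsenite, where replicate 3 was lowest (2.69 ± 0.29, adjusted p = 5.24e-05). ndhE, a second subunit, was higher by 1.45 ± 0.18 (adjusted p = 1.47e-04) and psbA, the D1 protein of photosystem II, by 1.71 ± 0.31 (adjusted p = 0.00128). The ribosomal protein gene rps14 differed by 1.37 ± 0.10 (adjusted p = 5.99e-06), and its call and that of ndhE were lost with the step kept. psaA, of photosystem I, was the lowest, at -1.33 ± 0.29 (adjusted p = 0.00372), with means of 7.04 under cadmium and 8.36 under arsenite.

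**Figure D4:**
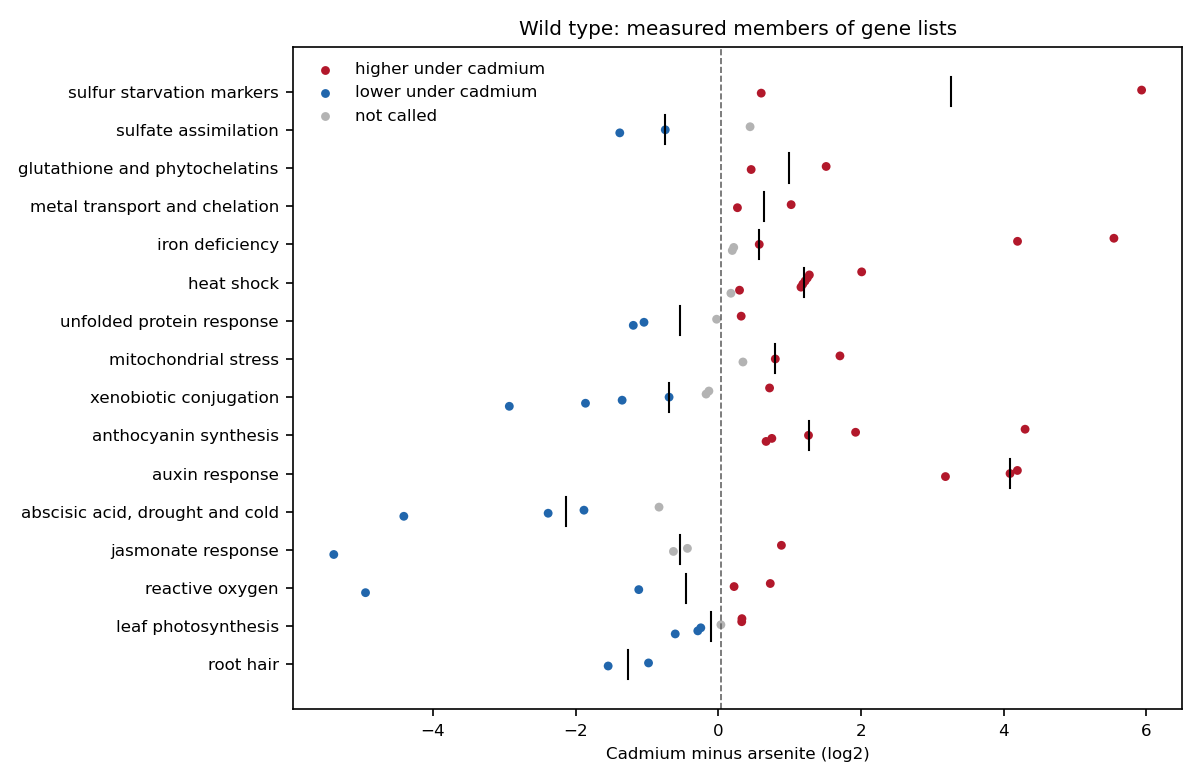
Cadmium minus arsenite difference (log2) of the measured members of 16 gene lists in wild type, with red and blue points for members called higher and lower under cadmium, grey for members not called, a black bar at each list's median, and a dashed line at 0.04, the median of all genes. The auxin, anthocyanin and heat shock members lie right of the dashed line, and the abscisic acid, drought and cold members left of it.

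Most large differences between the metals were present in slim1-1 too. The 6 slim1-1 arrays share no array with the wild-type ones, but the same array-set step separates their metals, and all 12 arrays were normalised together for this comparison. In slim1-1, 7370 genes (55.2%) differed between cadmium and arsenite. Of the 1433 genes with at least a 2-fold difference in wild type, 1419 had the same sign in slim1-1 and 1389 were also called there. Across genes the 2 differences correlated with r = 0.917 and rho = 0.868, given as a description since genes are not independent. The difference between wild type and slim1-1 itself was called for 532 genes (3.98%), 264 (1.98%) with a larger and 268 (2.01%) with a smaller cadmium minus arsenite difference in wild type.

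Of the 24 largest named differences, 10 differed between genotypes and all 24 kept their sign. Of the 1433 genes with at least a 2-fold difference in wild type, 214 differed between genotypes. The 24 were picked by the size of the wild-type difference, which favours larger differences there, so their count tests nothing. BGLU28 differed by 5.94 in wild type, against 2.42 in slim1-1, a difference of 3.53 ± 0.36 (adjusted p = 4.60e-04). HAT2 was also more strongly higher in wild type (3.16, against 2.05 in slim1-1, adjusted p = 4.81e-04), and so was GH3.3 (adjusted p = 0.0427). The call of GH3.3 was lost without any 1 of the arrays other than wild-type arsenite replicate 2 and slim1-1 arsenite replicate 1. Anthocyanin genes went the other way: DFR differed by 4.32 in wild type, against 6.71 in slim1-1 (-2.39 ± 0.35, adjusted p = 0.00285), and UGT75C1 and UF3GT also differed less in wild type, with -2.13 and -2.17 for wild type minus slim1-1. The small heat shock gene HSP17.6B differed by 1.3 in wild type, against 4.92 in slim1-1 (-3.63 ± 0.33, adjusted p = 2.75e-04), and Fes1A and HSP26.5 by 1.15 and 1.26 in wild type, against 2.89 and 3.33 in slim1-1. HSP23.5 gave 2.00 in wild type and 2.37 in slim1-1, with no called difference (adjusted p = 0.563). On the lower side CML37 was further below arsenite in wild type, at -5.05, against -2.81 in slim1-1 (adjusted p = 0.00168), and STZ at -4.92, against -3.61 (adjusted p = 9.68e-04). CML38, COR27, GI, PDC2 and Fes1B had no called difference between genotypes (adjusted p between 0.0829 and 0.980). APS4 was lower at -1.37 in wild type, against -0.58 in slim1-1 (adjusted p = 0.0173).

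**Figure D5:**
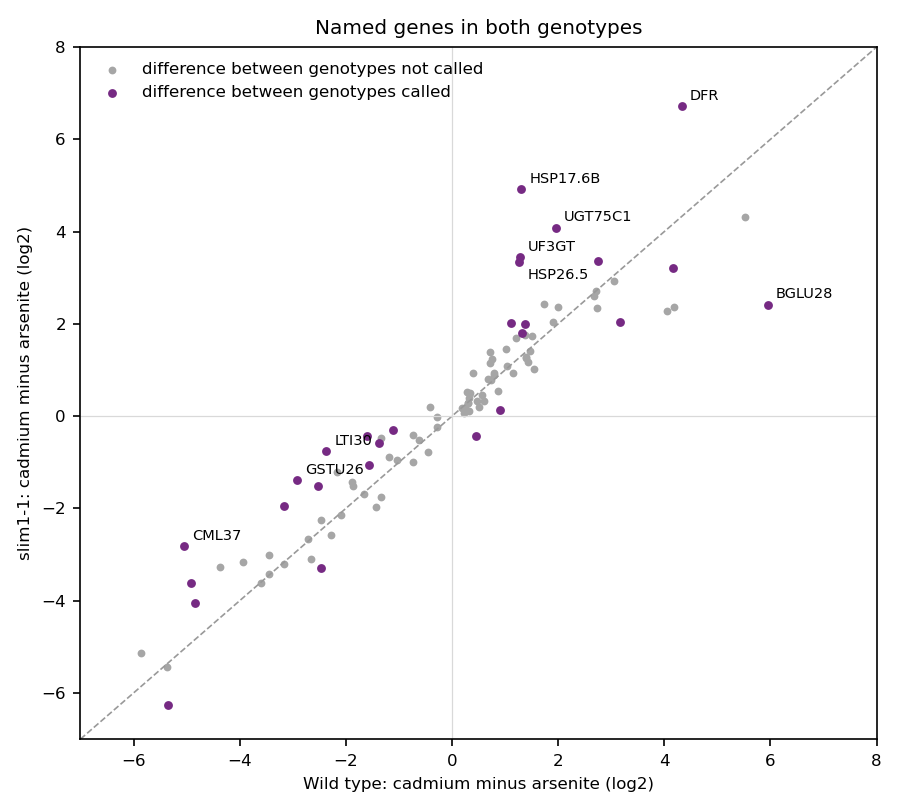
Cadmium minus arsenite difference (log2) of the 99 named genes in wild type (horizontal) against slim1-1 (vertical), purple where the difference between genotypes was called, with a dashed line of equality. Most points lie near the line, DFR, UGT75C1, UF3GT, HSP17.6B and HSP26.5 lie above it and BGLU28 below it.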

How the data were processed

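RNA of whole seedlings was hybridised to biotin-labelled single-colour arrays of 22810 probe sets. The authors deposited log2 values, which RMA produced (it corrects background, normalises quantiles and summarises probes into probe sets), per the submitters' processing notes. The sources used here do not give its version or options. The values hold no counts or detection calls. The 2 metal sets were evidently normalised apart, so the 6 wild-type arrays were quantile normalised together over the 22746 probe sets other than controls. This removes any change common to most genes. The step it removed was smaller at the top of the scale. Deposited lower quartiles were 3.32, 3.31 and 3.31 under cadmium, against 4.58, 4.62 and 4.57 under arsenite. The highest values were 13.56, 13.55 and 13.53, against 14.10, 14.12 and 14.13. Whether differences of dim genes are compressed was not tested.

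In the probe table, 13513 probe sets have 1 gene, 503 have several and 8730 are missing. Of several probe sets of a gene (146 genes) the one with the highest mean was kept, which left 13356 genes. RefSeq (assembly TAIR10.1) matched 13286 of these and gave 1557 a symbol. Gene positions and sequences are not given, since no build is named and no sequences were at hand, and the planned count of promoter motifs was not run.

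Groups came from the sample labels. Cadmium minus arsenite was fitted with limma 3.58.1 in R 4.3.3 (lmFit, eBayes) on the 6 arrays, and the difference between genotypes on all 12 arrays normalised together with 1 mean for each of the 4 groups. Two-sided p-values were adjusted by Benjamini-Hochberg over 13356 genes, with a threshold of 0.05. Values after ± are standard errors of a difference. The fit was also run on simulated data in which a small share of genes differed, as often up as down, with an even step between the sets. In the real data 56.5% of genes were called and the step varied with level. The simulation therefore cannot show how the fit performs here.

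Genes were named by a rule, which gave 99: the 12 largest differences in each direction among called genes with groups apart, the higher group above the median of all genes tested and a name in the tables; up to 4 called members by p of each list with at least 3 measured members; all measured members of the 4 lists on sulfur and metals; and the 4 of these with the smallest p for the genotype difference. Other list members are named for completeness of a list. The comparison and the 71 lists (32 by locus with 523 members, of which 77 were measured, the others by name in RefSeq) were chosen with earlier results of these data known. What is said of a list covers its measured members alone. Alternatives covered the normalization, filter, probe set rule, spread estimate, replicate block, array weights and leaving out each array.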

Additional observations from a re-analysis of the deposited data

Results flagged for a closer look

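These genes are listed because their cadmium minus arsenite difference differed between wild type and slim1-1 in the fit of all 12 arrays (limma, adjusted p under 0.05). Values are wild type minus slim1-1 on the log2 scale, so a negative value means a smaller or more negative difference in wild type. The groups have 3 arrays each, so no array was tested for standing apart from its group.

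Heat shock genes gave negative values: HSP17.6C gave -4.21 (adjusted p = 2.83e-05), HSP17.6B -3.63, HSP26.5 -2.07 and Fes1A -1.75. In slim1-1 these genes differed by 4.39, 4.92, 3.33 and 2.89, so they were higher under cadmium in both genotypes for all but HSP17.6C, which was not called in wild type. Anthocyanin genes also lay below 0, at -2.39 for DFR, -2.17 for UF3GT, -2.13 for UGT75C1 and -1.44 for AT5MAT. Conjugation genes did as well, at -1.97 for GSTU25, -1.55 for GSTU26, -1.16 for UGT73B4 and -0.97 for UGT73B5, and so did the cytochrome P450 gene CYP71B26 at -1.17 (adjusted p = 5.68e-05).

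Among sulfur genes BGLU28 gave 3.53, APS3 0.88 and APS4 -0.80. APS3 pointed in opposite directions, with 0.44 in wild type, against -0.43 in slim1-1. Auxin and defence genes with positive values were HAT2 at 1.11, GH3.3 at 0.96, ORA47 at 0.91, WRKY22 at 0.83 and THI2.1 at 0.77. Of the genes lower under cadmium, CML37 gave -2.24, LTI30 -1.61, STZ -1.31, XTH18 -1.22, PUB19 -1.01, SAPX -0.80, AT5G52050 -0.78 and AT1G54410 -0.50. The remaining named genes were EXLB1 at -0.90, LHCB4.3 at -0.63, PRX52 at -0.60 and XTH32 at -0.48. Of the loci without a symbol described under the other observations, AT1G65490 gave 1.33 and AT4G27654 -0.70.

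Of the 27 genes that the naming rule had picked, 18 kept the call under every alternative run. The calls of APS3, AT5G52050, EXLB1, GH3.3, GSTU26, LHCB4.3, ORA47, PUB19 and XTH32 were lost when at least 1 array was left out, with adjusted p between 0.0507 and 0.103. Those of EXLB1, GH3.3, LHCB4.3 and XTH32 were also lost with a replicate block (adjusted p between 0.0517 and 0.0677), that of GH3.3 with a robust, level-dependent spread (0.0556) and that of XTH32 after a shift to a common median (0.0625).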

How the results depend on the processing

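The comparison has 3 arrays a group, and its directions rest on the removal of the step between the array sets. The count of called genes, 7542, was 12990 with deposited values and the step kept, 4803 among genes above the median level, 1433 with a 2-fold minimum and 5890 at an adjusted p of 0.01. The other normalizations, spread estimates, the mean of probe sets and array weights left it within 1.5 times. Calls higher under cadmium were 220 with the step kept and 2851 above the median level, calls lower 12770 and 1952, and 2-fold calls 8738 with the step kept. At 8-fold the step gave 7 higher and 337 lower. Without 1 array, calls ranged between 6748 and 7172, calls higher between 3870 and 4118, calls lower between 2875 and 3054, 2-fold calls between 1421 and 1454, and 8-fold calls between 21 and 25 higher and 97 and 109 lower. Genes that differed between genotypes (532) ranged between 255 and 747, with 255 and 341 without wild-type cadmium replicates 1 and 3, 265 and 323 without wild-type arsenite replicates 2 and 3, and 274 and 304 without slim1-1 cadmium and arsenite replicate 2. Same-numbered arrays did not deviate together (correlations of 0.02, 0.07 and -0.00254), so the numbers are not taken as pairs. With a replicate block 7318 genes were called, 7139 of them shared, and 419 differed between genotypes. APS3 gained a call with it (adjusted p = 0.02) and AT2G44060 lost its own (0.0708).

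Of the 98 named genes called, 91 kept direction and call under all alternatives but deposited values, among them all 24 largest. The exceptions were AT2G44060, ATERDJ3B, GSTU20, TAPX, TY1 and ZIP9, which lost the call in at least 1 alternative, and LHCB4.1, which was 0.22 after a shift to a common median. A shift to a common median also moved the median gene to 0.15. With the step kept, genes turned to a lower level under cadmium as follows: HSP17.6B -0.0892, HSP15.7 -0.18, UF3GT -0.10, UGT78D2 -0.47, UGT73C7 -0.24, EXLB1 -0.10, CYP71B6 -0.17, CYP78A9 -0.61, THI2.1 -0.35, GSTU27 -0.33, GSTU22 -0.49, GSTU20 -0.82, NDB2 -0.41, SRX -0.49, TAPX -0.98, LEA4-5 -0.70, AT2G44060 -0.98, rpoB -0.53, SDI2 -0.61, APS3 -0.77, GR -0.75, ZIP9 -1.09, PYE -0.65, AT3G09720 -0.92, LHCB4.2 -0.45, RCA -0.34, ATERDJ3B -0.89, TO2 -0.93, WRKY20 -0.94 and LCR66 -0.79. The calls of CYP71B24, GSTU16, HSP26.5, LHCB4.3, MT1C, UGT74D1, XTH32, ndhE and rps14 were lost with the step kept (adjusted p between 0.101 and 0.916). The planned promoter motif counts were not run. Signals near background carry no detection call, which limits folds of dim genes.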

Other observations

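The largest differences of all belonged to loci to which the tables used here give no symbol, and these were chosen after their values were seen. AT5G62360 had 5.24, 5.0 and 4.74 under cadmium, against 12.00, 11.98 and 12.00 under arsenite, 128-fold lower under cadmium (-7.0 ± 0.11, adjusted p = 1.27e-09). The neighbouring loci AT4G27654 and AT4G27657 were lower by 107-fold (-6.74 ± 0.073, adjusted p = 3.30e-10) and 79.5-fold (-6.31 ± 0.095, adjusted p = 8.50e-10). They averaged 4.01 and 4.22 under cadmium, near the lower quartile of the probe sets, so these folds are not exact. AT4G29780 had 6.18, 6.19 and 5.94 under cadmium, against 12.34, 12.27 and 12.19 under arsenite, which puts it among abundant transcripts under arsenite (-6.16 ± 0.088, adjusted p = 6.97e-10). AT1G56300 and AT4G33980 differed by -6.17 ± 0.13 (adjusted p = 4.46e-09) and -6.02 ± 0.12 (adjusted p = 2.88e-09), with mean levels under cadmium not above background. On the higher side AT1G80130 had 8.84, 8.94 and 8.15 under cadmium, against 3.81, 3.86 and 4.18 under arsenite (4.69 ± 0.20, adjusted p = 1.79e-07), and AT1G52000 and AT3G28270 were higher by 4.45 ± 0.24 (adjusted p = 8.99e-07) and 4.33 ± 0.13 (adjusted p = 3.16e-08). AT1G65490 was higher by 3.82 ± 0.082 (adjusted p = 4.41e-09), with 11.18, 11.06 and 11.06 under cadmium and 7.37, 7.14 and 7.33 under arsenite. None of these groups overlapped, but this was a condition for choosing the loci and held for 64% of all genes tested.

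Other families found by name showed no common direction. Of all genes tested 32.4% were higher and 24% lower under cadmium. Of 43 UDP-glycosyltransferases 16 were higher and 9 lower, shares near those, with a median of 0.14, and the UGT74D1 gene was higher by 1.41 ± 0.10 (adjusted p = 4.85e-06), a call lost with the step kept. Of 24 cytochromes P450, nearly all of the CYP71B group, 8 were higher and 3 lower (6 lower without cadmium replicate 3), from CYP71B24 at 1.54 ± 0.15 (adjusted p = 2.96e-05), a call lost with the step kept, to CYP71B26 at -1.62 ± 0.066 (adjusted p = 1.65e-07). The glutaredoxins GRXC1 (0.72 ± 0.079, adjusted p = 6.34e-05) and GRXC2 (0.55 ± 0.088, adjusted p = 6.53e-04) were higher, whereas GRX480 was lower (-1.86 ± 0.15, adjusted p = 1.14e-05), and of 8 thioredoxins 1 was higher and 1 lower. Of 7 late embryogenesis abundant genes, LEA4-5 was higher by 0.71 ± 0.12 (adjusted p = 9.30e-04) and AT2G46140 (LEA27) lower at -1.36 ± 0.12 (adjusted p = 2.07e-05). With the step kept, 1 UDP-glycosyltransferase was higher and 38 lower, and 0 and 22 cytochromes P450.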
